A study of Mus musculus with 8 samples.

Results

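The 10 genes described here serve sodium, calcium and magnesium handling in the distal convoluted tubule, the short nephron segment between the loop of Henle and the connecting tubule. They were taken by symbol from a list (Slc12a3, Wnk1, Wnk4, Trpm6, Pvalb, Trpv5, Calb1, S100g, Slc8a1 and Klk1) that was chosen with earlier results of these data known. All 10 were found among the 47643 Ensembl genes of the count files and had enough counts to be tested. The data are RNA sequencing counts from 8 whole mouse kidneys. 4 came from conditional knockout mice (cKO; Six2-Cre with both Cox10 alleles floxed) and 4 from wild-type mice (WT), and replicates 1, 3 and 4 of each genotype were 3 months old and replicate 2 was 2.5 months old. Cox10 encodes an enzyme of heme A synthesis that cytochrome c oxidase requires, and Six2-Cre acts in the progenitors of the nephron epithelium, so that the collecting duct, vessels and blood cells keep the gene. The labels call the WT mice wild type and give no further allele, no sex and no littermate status.

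As background, the cells of this segment take up sodium chloride from the tubular fluid through the thiazide-sensitive cotransporter NCC, encoded by Slc12a3, which WNK kinases switch on through the kinase SPAK. The early part of the segment carries the magnesium channel TRPM6 and the calcium buffer parvalbumin. The late part and the connecting tubule take up calcium through the channel TRPV5, carry it across the cell on calbindins and export it through the sodium calcium exchanger NCX1, and the connecting tubule secretes tissue kallikrein.

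Library totals ran from 9454830 to 14837448 expected counts in cKO and from 9731334 to 15838026 in WT. Y-linked reads, which show a male animal, were present in cKO 3 (848 counts) and in WT 2, WT 3 and WT 4 (829 to 1707 counts), and the other libraries, cKO 1, cKO 2, cKO 4 and WT 1, held 0. Sex is therefore unevenly spread over the genotypes, and contrasts within each class stand beside the results. Cox10 itself, counted over the whole gene, had 18.4 ± 5.12 CPM in cKO and 20.96 ± 2.47 CPM in WT kidneys (SD, n = 4 each; edgeR adjusted p = 0.619). Since the floxed part of the gene is not named in the labels, this total does not check the deletion. Defining markers showed the kidney as labelled. The summed level of 11 proximal tubule markers was 3725 to 16639 CPM in cKO and 52828 to 81578 CPM in WT. For 11 markers of the distal convoluted tubule outside the 10 genes the sum was 2032 to 2204 CPM in cKO and 2274 to 3863 CPM in WT. The largest part of the distal sum in each kidney was Fxyd2, with 1470 ± 218 CPM in cKO and 1594.5 ± 667 CPM in WT (edgeR adjusted p = 0.831). In the WT kidneys most of the proximal tubule sum is Kap, an androgen-dependent gene. Kap had 2518 ± 4104 CPM in cKO and 49711 ± 13680 CPM in WT. By kidney it had 532, 754, 8662 and 124 CPM in cKO 1 to cKO 4, and 43389, 69538, 38650 and 47268 CPM in WT 1 to WT 4. It was thus high in WT 1, which lacks Y-linked reads, and lower than in any WT kidney in cKO 3, which has them. CPM is edgeR's depth-scaled unit, a gene's expected counts relative to its library's total, with totals adjusted by TMM factors.

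Of the 10 genes 4 fell in cKO kidneys at an edgeR adjusted p under 0.05, namely Pvalb, Trpm6, Wnk1 and Slc12a3, and 0 rose. Parvalbumin RNA was at 0.033 of its WT level, and the other 3 were at 0.450 to 0.519 of theirs. Over all 13829 tested genes 16.7% passed this test, 7.14% as lower and 9.57% as higher. The median log2 fold change of the 10 genes was -0.80, beside -0.01 over all tested genes. 8 of the 10 had a negative fold change and 2, Trpv5 and S100g, a positive one. Of the 10 genes 4 had all cKO libraries below all WT libraries, beside 9.56% of all tested genes. They were the same 4 that fell, and both counts come from the same values. In whole kidneys fewer cells of a type and less RNA per cell cannot be told apart. The labels name separate mice only by their numbers, so the p-values measure the spread between these 8 samples.

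**Figure D1:**
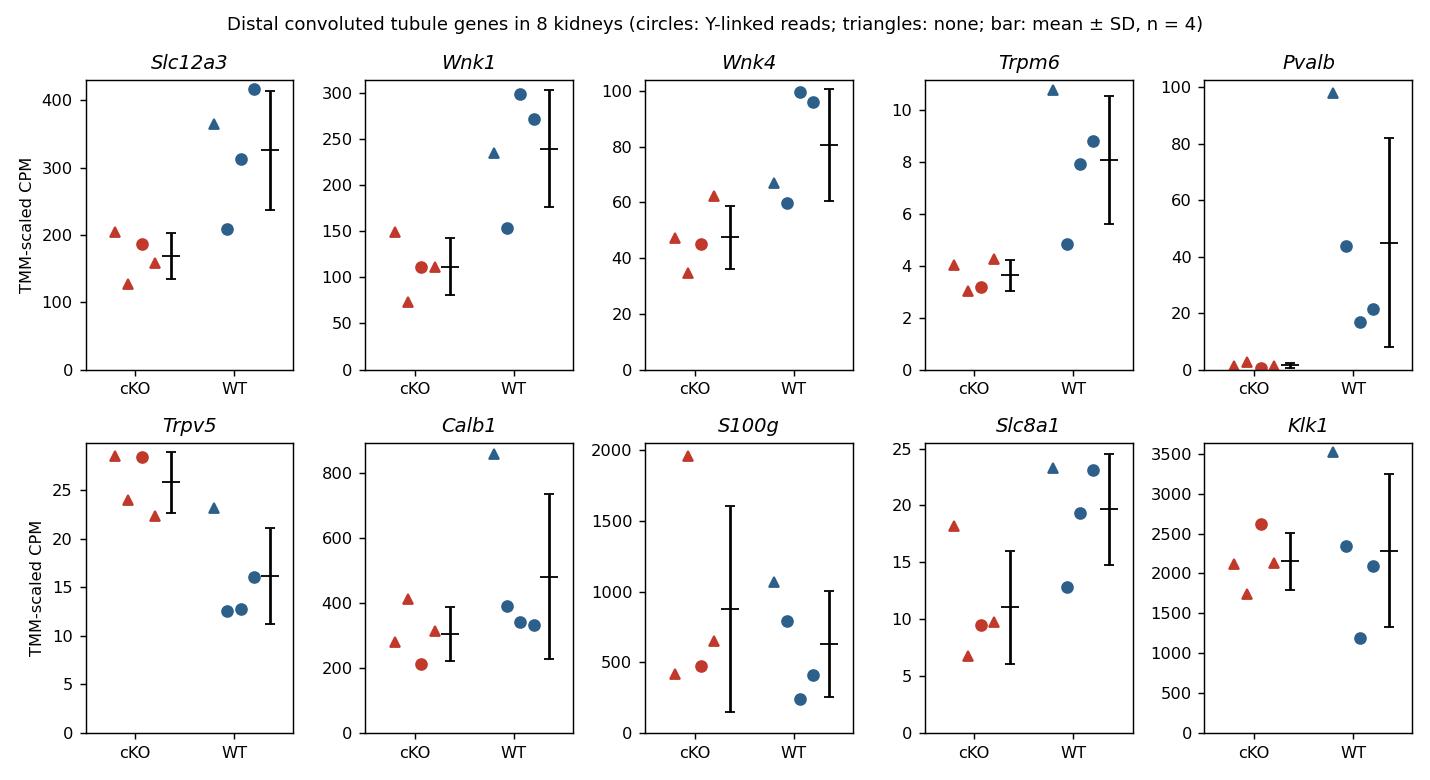
TMM-scaled CPM (vertical axes, each from 0) of the 10 genes in each cKO (red, left) and WT (blue, right) kidney; triangles are libraries without and circles libraries with Y-linked reads, and the bars give the mean ± SD over 4 libraries. The cKO values of Slc12a3, Wnk1, Trpm6 and Pvalb lie below all WT values, and the other 6 genes overlap.

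The sequences just upstream of 3 genes are shown because these genes mark the range of the results: Slc12a3 defines the segment, Pvalb had the lowest cKO to WT ratio and Trpv5 the highest. They are the 250 bases before the transcription start from RefSeq (build GRCm38.p6), read on the strand of the gene, and capitals mark the TATA box letters TATAAA. The Pvalb window belongs to the first of 2 starts that RefSeq lists, which is also the start in the GENCODE annotation.
Slc12a3, chr8:94328958-94329207, plus strand: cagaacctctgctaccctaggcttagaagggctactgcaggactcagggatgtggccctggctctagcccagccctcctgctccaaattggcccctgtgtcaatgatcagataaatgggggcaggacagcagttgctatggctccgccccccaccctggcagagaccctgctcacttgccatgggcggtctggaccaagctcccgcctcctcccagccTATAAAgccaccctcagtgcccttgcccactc
Pvalb, chr15:78206401-78206650, minus strand: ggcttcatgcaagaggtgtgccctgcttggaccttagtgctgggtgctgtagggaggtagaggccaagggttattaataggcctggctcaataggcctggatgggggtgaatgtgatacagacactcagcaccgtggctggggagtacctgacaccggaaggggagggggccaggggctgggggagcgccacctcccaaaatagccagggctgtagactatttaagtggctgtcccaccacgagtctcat
Trpv5, chr6:41680724-41680973, minus strand: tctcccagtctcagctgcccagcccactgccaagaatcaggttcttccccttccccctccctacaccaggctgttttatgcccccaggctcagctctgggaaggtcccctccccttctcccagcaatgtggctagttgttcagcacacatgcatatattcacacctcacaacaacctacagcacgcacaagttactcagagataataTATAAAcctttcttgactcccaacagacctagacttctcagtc
RefSeq windows were matched for 9 of the 10 genes. TATAAA on either strand was found for 2 of the 9, Slc12a3 and Trpv5, at positions -32 and -43 from the start, and in 12.4% of all 32851 promoter windows of the same length. The nuclear receptor half-site AGGTCA was found for 2 of the 9, Klk1 and S100g, and in 14.0% of all windows. Neither motif overlapped the other, and 3 other motifs were found in none of the 9, the hepatocyte nuclear factor 1 half-site GTTAAT (6.43% of all windows), the consensus palindrome of the glucocorticoid and mineralocorticoid receptors (0.0091%) and that of the estrogen receptor, which can share letters with AGGTCA (0.0639%). Absence of these letters from a window says nothing of the factors.

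Slc12a3 (ENSMUSG00000031766, mm10 chromosome 8, 94329201 to 94366214) encodes the sodium chloride cotransporter that thiazide diuretics block. In cKO 1 to cKO 4 it had 204, 127, 187 and 158 CPM, against 365, 209.5, 313 and 416 CPM in WT 1 to WT 4. The groups do not overlap, but the lowest WT kidney, the 2.5-month WT 2, lay only just above the highest cKO kidney, cKO 1. The means were 169 ± 33.8 CPM in cKO and 326 ± 88.3 CPM in WT (SD, n = 4 each), so that Slc12a3 fell by 0.95 on the log2 scale (SE 0.27, 95% interval -1.53 to -0.36, edgeR adjusted p = 0.032). The call was lost when WT 3, WT 4, cKO 2, cKO 3 or cKO 4 was left out (adjusted p up to 0.107), within either class of Y-linked reads, and also with a sex term (-0.95, adjusted p = 0.0946) and when libraries were scaled by total counts alone (-0.79, adjusted p = 0.0761).

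Both WNK kinases act upstream of this cotransporter. Wnk1 (ENSMUSG00000045962, chromosome 6, 119923969 to 120038672) is expressed in many cell types and has a kidney-specific short isoform in this segment, which a total per gene does not separate from the long one. It had 149, 73.7, 111 and 111 CPM in cKO 1 to cKO 4, against 234, 153, 298 and 272 CPM in WT 1 to WT 4. Here too WT 2 was the lowest WT kidney and cKO 1 the highest cKO kidney, with no overlap. Wnk1 fell by 1.10 on the log2 scale (SE 0.28, edgeR adjusted p = 0.0204), and its call was lost without WT 3, WT 4, cKO 3 or cKO 4 (adjusted p up to 0.0653), within either class of Y-linked reads, with a sex term (-1.10, adjusted p = 0.0746) and with scaling by total counts (-0.95, adjusted p = 0.0527).

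Wnk4 (ENSMUSG00000035112, chromosome 11, 101260567 to 101277409), a WNK kinase that, like WNK1, is mutated in some families with hyperkalemic hypertension, had 47.3, 34.8, 45.2 and 62.3 CPM in cKO 1 to cKO 4. WT 1 to WT 4 had 66.9, 59.8, 99.5 and 96.0 CPM. Only cKO 4 and WT 2 crossed, and the log2 fold change of -0.76 (SE 0.24, 95% interval -1.30 to -0.23) missed the threshold with an edgeR adjusted p of 0.0523. It passed under 5 of the 23 alternatives, among them DESeq2 (adjusted p = 0.0241), the age term (0.0194) and the replicate block (0.0329).

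Of 23 tested genes of the WNK-SPAK pathway and distal sodium chloride transport other than the 10, 1 fell and 1 rose. Over all tested genes 7.14% fell and 9.57% rose. The median log2 fold change of the 23 was -0.26. Klhl3, the adaptor that brings WNK kinases to the cullin 3 ubiquitin ligase for degradation, fell to 3.52 ± 1.91 CPM in cKO, against 11.5 ± 3.35 CPM in WT (SD, n = 4 each), a fall by 1.71 on the log2 scale (SE 0.38; adjusted p = 0.0124 by edgeR). It had 6.23, 2.83, 3.27 and 1.76 CPM in cKO 1 to cKO 4, all below the 13.4, 7.23, 10.7 and 14.9 CPM of WT 1 to WT 4, and its call held without each library in turn and with a sex term, and was lost only without WT 4 and cKO 4 together and within the classes of Y-linked reads. The gene that rose, Hsd11b2, inactivates glucocorticoids in aldosterone-sensitive cells and had 270 ± 89.2 CPM in cKO and 148 ± 27.6 CPM in WT (edgeR adjusted p = 0.0499), a call lost in 12 of 23 alternatives. Stk39, which encodes SPAK, had a log2 fold change of 0.38 (edgeR adjusted p = 0.196) and Oxsr1, its relative OSR1, 0.11 (0.697), neither of which passed. For the basolateral potassium channel subunits Kcnj10 and Kcnj16 the log2 fold changes were -0.71 (edgeR adjusted p = 0.114) and -0.32 (0.406).

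Trpm6 (ENSMUSG00000024727, chromosome 19, 18749983 to 18892511) forms the apical magnesium channel, and its loss of function causes hereditary hypomagnesemia in humans. The libraries held 66, 28, 45 and 65 counts of it in cKO 1 to cKO 4 and 125, 42, 97 and 136 in WT 1 to WT 4. Scaled, these were 4.03, 3.05, 3.20 and 4.24 CPM in cKO 1 to cKO 4, against 10.8, 4.82, 7.92 and 8.79 CPM in WT 1 to WT 4, with no overlap and WT 2 again lowest among the WT kidneys. Trpm6 fell by 1.15 on the log2 scale (SE 0.29, 95% interval -1.79 to -0.51, edgeR adjusted p = 0.0211). The call held with a sex term and under every scaling, and was lost without WT 4 (adjusted p = 0.0671), without cKO 3 (0.059), without WT 4 and cKO 4 together (0.112) and within either class of Y-linked reads.

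Of 16 tested magnesium genes outside the 10, 1 rose and 1 fell, where 9.57% and 7.14% of all genes did. Their median log2 fold change was -0.37. The one that rose, Cldn16, encodes the tight junction protein of paracellular magnesium uptake in the thick ascending limb and had 36.4 ± 5.52 CPM in cKO and 13.4 ± 6.67 CPM in WT (SD, n = 4 each; edgeR adjusted p = 0.0115). Ppargc1a, a coactivator of mitochondrial gene expression, was the one that fell, with 16.1 ± 6.45 CPM in cKO and 41.0 ± 11.6 CPM in WT (edgeR adjusted p = 0.0123), a call that ended with a sex term. Egf, whose product stimulates TRPM6, had 529, 39.1, 337 and 133 CPM in cKO 1 to cKO 4, against 923, 653, 891 and 964 CPM in WT 1 to WT 4. The groups of Egf do not overlap, yet cKO 2 and cKO 1 differ widely, and its log2 fold change of -1.72 (SE 0.60) did not pass (edgeR adjusted p = 0.0691). Trpm7, the ubiquitous relative of Trpm6, had -1.004 (0.0642), Cnnm2, a basolateral magnesium transport protein, -0.52 (0.141) and Fxyd2, a sodium pump subunit, -0.12 (0.831), none of which passed in edgeR.

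The lowest cKO to WT ratio belonged to Pvalb (ENSMUSG00000005716, chromosome 15, 78191114 to 78206400), which encodes parvalbumin, a soluble calcium buffer of the early distal convoluted tubule and also of fast muscle fibres and some neurons. The counts were 20, 26, 10 and 21 in cKO 1 to cKO 4 and 1133, 381, 206 and 332 in WT 1 to WT 4. These gave 1.22, 2.83, 0.711 and 1.37 CPM in the cKO kidneys and 97.7, 43.7, 16.8 and 21.5 CPM in the WT kidneys. Even the lowest WT kidney, WT 3, stood well above the highest cKO kidney, cKO 2. The means were 1.53 ± 0.909 CPM in cKO and 44.9 ± 37.1 CPM in WT (SD, n = 4 each), a log2 fold change of -4.92 (SE 0.64, 95% interval -6.33 to -3.50, edgeR adjusted p = 0.00088), which ranked 166 of the 13829 genes by p. The call held in all 23 alternatives, including a sex term (-5.60) and the contrasts within libraries without (-5.80) and with (-5.24) Y-linked reads, each of which has a single library on 1 side.

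Among WT kidneys Pvalb was highest in WT 1, the WT library without Y-linked reads, and leaving WT 1 out gave a log2 fold change of -4.21 (edgeR adjusted p = 0.000262). The sum of 7 skeletal muscle markers, with Myh4 and Acta1 the most abundant, was also highest in WT 1, at 84.9 CPM, and ran from 12.8 to 31.2 CPM in the cKO kidneys and from 16.7 to 23.8 CPM in the other WT kidneys. Of these 7 markers 0 passed in edgeR, and the part of muscle RNA in the Pvalb difference was not tested. Of the 6 brain and heart markers 1 had enough counts to be tested, the troponin Tnnt2, which rose to 3.45 ± 1.89 CPM in cKO, against 0.0485 ± 0.097 CPM in WT (edgeR adjusted p = 0.00127).

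Trpv5 (ENSMUSG00000036899, chromosome 6, 41652173 to 41680769), the apical channel through which the late segment takes up calcium, had 28.6, 23.9, 28.4 and 22.3 CPM in cKO 1 to cKO 4, against 23.1, 12.5, 12.7 and 16.1 CPM in WT 1 to WT 4. WT 1 reached the range of the cKO kidneys, and the other 3 WT kidneys lay below all of them. The means were 25.8 ± 3.15 CPM in cKO and 16.1 ± 4.95 CPM in WT (SD, n = 4 each), a log2 fold change of 0.68 (SE 0.24, 95% interval 0.16 to 1.20) that did not pass (edgeR adjusted p = 0.0713). It passed without WT 1 (0.90, adjusted p = 0.0153), with DESeq2 (0.0472), with the age term (0.0486) and with scaling by total counts (0.0325). Within libraries without Y-linked reads the log2 fold change was 0.11, and within those with them 1.04. The difference between the classes was 0.93 (SE 0.49, unadjusted p = 0.0864, adjusted p = 1 in edgeR).

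Of the calbindins, Calb1 (calbindin D28k, ENSMUSG00000028222, chromosome 4, 15881264 to 15908064), the main calcium shuttle of the late segment, had 280.2, 412, 212 and 312 CPM in cKO 1 to cKO 4. In WT 1 to WT 4 it had 859, 390.2, 341 and 331 CPM. WT 1 stood far above the other 7 kidneys, which overlapped. The log2 fold change was -0.66 (SE 0.35, 95% interval -1.43 to 0.11) and did not pass (edgeR adjusted p = 0.21). Without WT 1 it was -0.22 (adjusted p = 0.578), and with a sex term it was -1.05 and passed (adjusted p = 0.0432), a fit in which WT 1 alone stands for WT animals without Y-linked reads.

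S100g (calbindin D9k, ENSMUSG00000040808, chromosome X, 162961992 to 162964599), the small calcium shuttle that vitamin D induces, varied most among the 10 genes within cKO. It had 417, 1959, 477 and 653 CPM in cKO 1 to cKO 4, against 1068, 795, 239 and 410.5 CPM in WT 1 to WT 4. The groups overlapped, and the highest value was that of the 2.5-month cKO 2. A log2 fold change of 0.48 (SE 0.56, 95% interval -0.74 to 1.70) did not pass (edgeR adjusted p = 0.576), and it changed sign with a sex term (-0.048) and without cKO 2 (-0.28). The gene overlaps Ctps2 on the other strand, which held 4423 counts over all libraries beside 70107 for S100g, and the strand setting of the counting is not given in the sources used here.

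Slc8a1 (ENSMUSG00000054640, chromosome 17, 81373105 to 81738377), the sodium calcium exchanger NCX1 that exports calcium at the basolateral side and is also found in heart and smooth muscle, had 18.2, 6.75, 9.46 and 9.73 CPM in cKO 1 to cKO 4, against 23.3, 12.9, 19.4 and 23.2 CPM in WT 1 to WT 4. The kidney cKO 1 lay inside the WT range, and the other 3 cKO kidneys lay below it. The log2 fold change of -0.83 (SE 0.31, 95% interval -1.52 to -0.14) did not pass (edgeR adjusted p = 0.092). It passed without cKO 1 (-1.18, adjusted p = 0.0208), with the age term (0.0344) and with the replicate block (0.0334). Fibroblast and smooth muscle markers, 9 genes, summed to 748 to 1415 CPM in cKO and 215 to 302 CPM in WT, and their part in the Slc8a1 value was not tested.

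Klk1 (ENSMUSG00000063903, chromosome 7, 44225360 to 44229618), the tissue kallikrein of the connecting tubule, was the most abundant of the 10 in CPM, with 2124, 1744, 2616 and 2127 CPM in cKO 1 to cKO 4 and 3519, 2346, 1189.8 and 2097 CPM in WT 1 to WT 4. The cKO values all lay inside the WT range. The log2 fold change was -0.09 (SE 0.34, 95% interval -0.83 to 0.65, edgeR adjusted p = 0.877). Klk1 has near copies: 24.0% of the 50-base windows of its transcripts occur also in another gene, chiefly Klk1b5 and Klk1b3, and for the other 9 genes the share was at most 0.045%. The 23 Klk1b genes together held 0.347 to 0.884% of the Klk1 counts in cKO and 0.286 to 0.436% in WT, so the value of Klk1 is uncertain by the few reads that could be split between them.

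**Figure D2:**
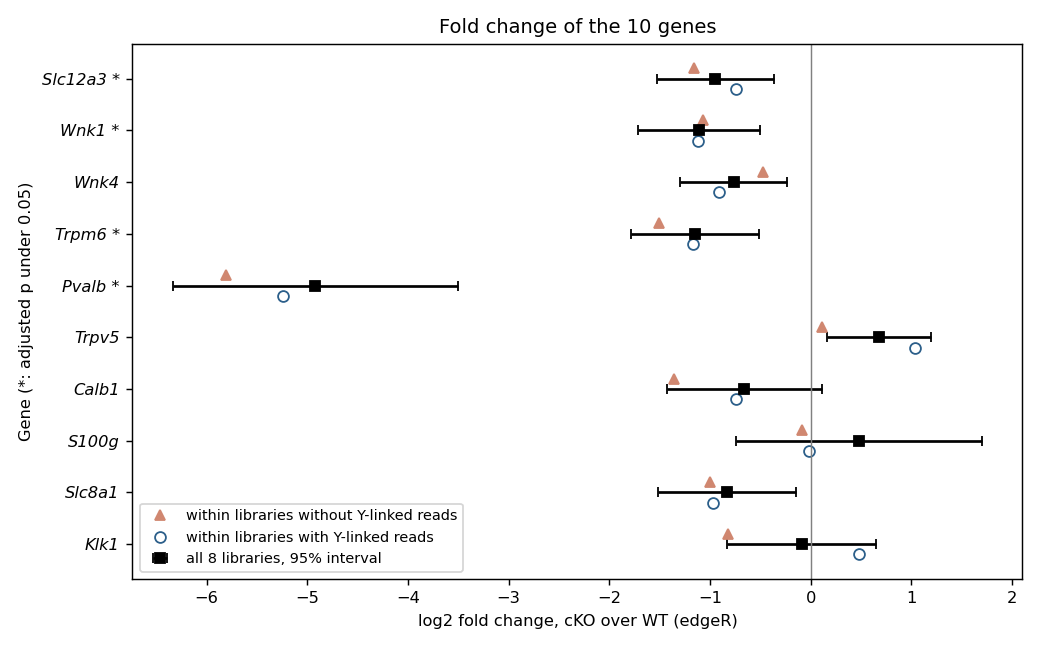
Log2 fold change of cKO over WT (horizontal axis) of the 10 genes from the edgeR fit of all 8 libraries (black squares, 95% interval), with the contrasts within libraries without (triangles) and with (open circles) Y-linked reads. Pvalb stands at -4.92 and Slc12a3, Wnk1 and Trpm6 between -1.15 and -0.95, while the classes lie on opposite sides of 0 only for Klk1.

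Whether the genotype effect differed between libraries with and without Y-linked reads was tested for each gene. WT 1 was the only WT library without such reads and cKO 3 the only cKO library with them. Resting on these single libraries, the test could not show that the effect was the same in both classes. Of the 10, 0 passed the edgeR test of this difference after adjustment, where 0.0651% of all tested genes passed, and 0 had an unadjusted p under 0.05, where 3.98% of all did. The term for Y-linked reads itself passed for 0 of the 10, beside 0.116% of all genes, with its most negative values for Pvalb (-1.66, SE 0.41), S100g (-1.12, SE 0.56) and Calb1 (-0.97, SE 0.28), lower in libraries with Y-linked reads. With a sex term in the fit 3 of the 10 passed (Pvalb, Trpm6 and Calb1), where 6.8% of all genes did.

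Levels between genes can be compared only per transcript length, here as CPM per kilobase of the merged exons in the annotation, which understates genes with many alternative exons such as Wnk1 and Slc8a1. On this scale Klk1 had 1999 ± 332 CPM per kilobase in cKO and 2124 ± 891 in WT, and S100g 1826 ± 1518 in cKO and 1308 ± 779.8 in WT (SD, n = 4 each), and these neighbours overlap. Calb1 followed with 62.8 ± 17.2 CPM per kilobase in cKO and 99.1 ± 52.4 in WT. Pvalb ranked 8 in cKO, at 1.47 ± 0.873 CPM per kilobase, and 4 in WT, at 43.2 ± 35.6. Slc12a3 had 15.2 ± 3.04 in cKO and 29.3 ± 7.94 in WT, and within WT its range overlaps those of Pvalb and Wnk4. Trpv5 had 7.96 ± 0.973 CPM per kilobase in cKO and 4.97 ± 1.53 in WT. At the lower end Trpm6, at 0.470 ± 0.077 in cKO and 1.05 ± 0.321 in WT, and Slc8a1, at 0.586 ± 0.264 in cKO and 1.05 ± 0.260 in WT, did not differ beyond their spread in either genotype.

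The ratio to Slc12a3 in the same library asked whether a gene moved with the cotransporter that defines the segment. The difference between cKO and WT in the log2 ratio was -3.78 for Pvalb and 1.64 for Trpv5, and for both the libraries of the 2 genotypes did not overlap. For Trpv5 the log2 ratios were -2.84, -2.41, -2.72 and -2.82 in cKO 1 to cKO 4, against -3.98, -4.07, -4.62 and -4.69 in WT 1 to WT 4. The Pvalb log2 ratios were -7.39, -5.49, -8.04 and -6.85 in cKO 1 to cKO 4, against -1.90, -2.26, -4.22 and -4.28 in WT 1 to WT 4. Each gave an exact two-sided permutation p of 0.0286, the smallest that 70 assignments of the 8 libraries allow, and an adjusted p of 0.129 over the 9 genes. With 2 of 9 genes at the smallest possible p, an adjusted p under 0.05 could not be reached. The adjusted exact test therefore could not decide for these 2 genes. Thus 0 of the 9 passed by this exact test, and 2 had an unadjusted p under 0.05, beside 36.9% of the 13532 genes with counts in every library. Slc12a3, the denominator, fell itself, and the median difference over these genes was 0.92. For 36.3% of them all cKO libraries lay above all WT libraries, as for Trpv5, but for only 0.613% all lay below, as for Pvalb. A limma fit of the log2 ratios of all genes with a replicate block passed 4 of the 9 (Pvalb, Trpv5, Klk1 and S100g), no larger a share than the 62.3% of all genes that passed it, and it gave nearly every gene the same pooled variance.

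Wnk1 (-0.18), Wnk4 (0.16), Trpm6 (-0.19) and Slc8a1 (0.03) had differences of log2 ratio near 0, with exact permutation p of 0.314, 0.514, 0.343 and 0.971 (n = 4 each). The Slc8a1 log2 ratio was -4.01 ± 0.370 in cKO kidneys and -4.04 ± 0.0865 in WT kidneys (SD, n = 4 each). Calb1 (0.35), S100g (1.33) and Klk1 (0.93) had positive differences with exact p of 0.457, 0.229 and 0.0571, that of Klk1 close to the median of all genes. For Klk1 the log2 ratio was 3.68 ± 0.201 in cKO and 2.75 ± 0.745 in WT (SD, n = 4 each), and only WT 2 crossed into the cKO range. Set against the mean of the other distal convoluted tubule markers in place of Slc12a3, the differences of Pvalb and Trpv5 were -3.93 and 1.49. The adjusted exact p was again 0.129, which could not pass for the reason given above.

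**Figure D3:**
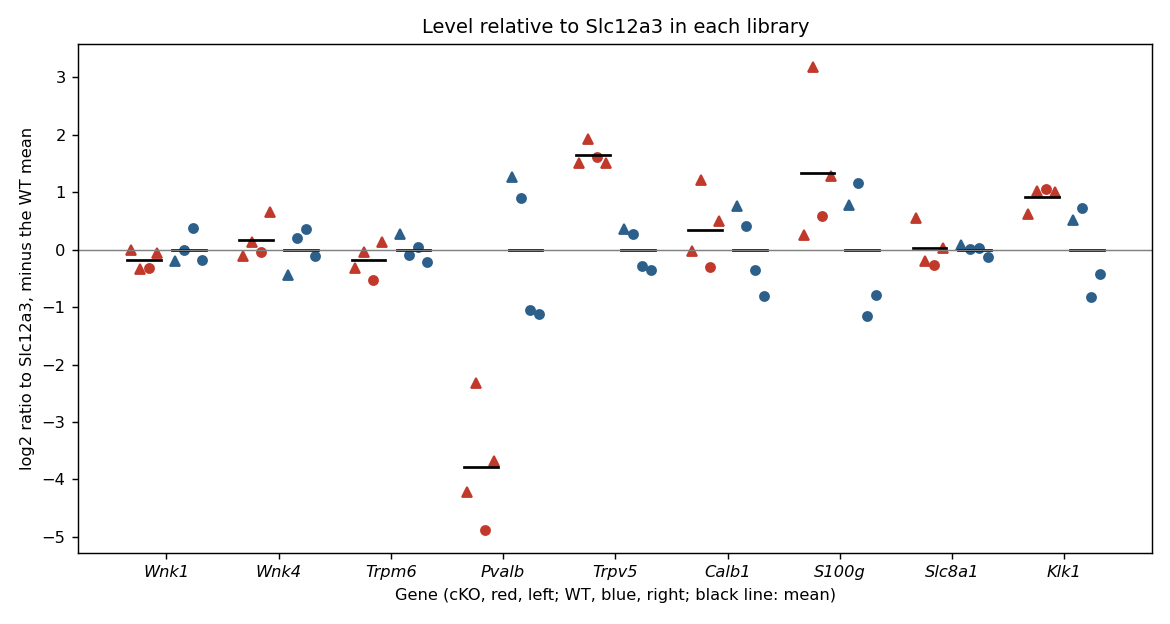
Log2 ratio of 9 genes to Slc12a3 in each library, with the WT mean of each gene subtracted (vertical axis, log2 units); cKO in red at the left and WT in blue at the right of each gene, triangles without and circles with Y-linked reads, black lines the means. All 4 cKO libraries lie below WT for Pvalb and above WT for Trpv5, with differences of means of -3.78 and 1.64; over all genes 0.613% lie wholly below and 36.3% wholly above.

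Of the 11 distal convoluted tubule markers outside the 10 genes, 1 fell, Klhl3, which is also a pathway gene, where 7.14% of all genes fell, and 0 rose, with a median log2 fold change of -0.55. Of these markers Klhl3, Cnnm2, Egf, Kcnj10, Fxyd2 and Ppp1r1a also stand in the pathway lists. The others had negative values that did not pass in edgeR. Tmem52b, a membrane protein of this segment, had 166 ± 54.7 CPM in cKO and 244 ± 69.4 CPM in WT (SD, n = 4 each; edgeR adjusted p = 0.204). The transcription factor gene Emx1 had a log2 fold change of -0.37 (edgeR adjusted p = 0.315) and Sall3 -0.74 (0.142).

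Connecting tubule and principal cell markers, the cells that follow downstream, had 6 of 12 tested genes higher, where 9.57% of all genes were, 0 lower and a median log2 fold change of 0.83. Their summed level was 1682 to 3877 CPM in cKO and 1271 to 1565 CPM in WT. The largest part of this sum was Aqp2 in each cKO kidney and Prss8 in each WT kidney. Aqp2 had 814, 710, 807 and 2113 CPM in cKO 1 to cKO 4, against 355, 382, 252 and 138 CPM in WT 1 to WT 4. Whether the sum without Aqp2 differed was not tested. The epithelial sodium channel subunit Scnn1b rose to 84.0 ± 9.68 CPM in cKO, against 38.9 ± 5.76 CPM in WT (SD, n = 4 each; edgeR adjusted p = 0.00329). Aqp2, the water channel that vasopressin controls, rose to 1111 ± 669.8 CPM in cKO, against 282 ± 111 CPM in WT (edgeR adjusted p = 0.0117), with 2113 CPM in cKO 4. The water channel Aqp3 rose by 1.20 and the transcription factor gene Gata3 by 0.95 on the log2 scale (edgeR adjusted p = 0.0106 and 0.0152), and the call of Gata3 was lost without WT 4 or without cKO 4. Of the tested markers not called, Fxyd4 (1.06, edgeR adjusted p = 0.0737) and Kcne1 (0.66, 0.1345) had positive log2 fold changes. Those of Aqp4 (-0.52, edgeR adjusted p = 0.338), Prss8 (-0.34, 0.315), Tfcp2l1 (-0.30, 0.538) and the sodium channel subunit Scnn1a (-0.03, 0.953) were negative. With a sex term 1 of the 12 rose and without WT 4 and cKO 4 together 0 did.

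Of 13 tested calcium genes outside the 10, 3 rose and 2 fell, where 9.57% and 7.14% of all genes did. Their median log2 fold change was -0.16. Trpv6, the close relative of Trpv5, rose to 9.33 ± 3.28 CPM in cKO, against 1.31 ± 0.642 CPM in WT (SD, n = 4 each), a rise by 2.84 on the log2 scale (SE 0.41; adjusted p = 0.00131 by edgeR). Its cKO values of 6.71, 9.03, 7.54 and 14.0 CPM in cKO 1 to cKO 4 all lay above the 1.98, 1.61, 0.490 and 1.16 CPM of WT 1 to WT 4. Cyp27b1, which makes active vitamin D, rose to 18.1 ± 7.84 CPM in cKO, against 1.86 ± 0.703 CPM in WT (edgeR adjusted p = 0.0005), and its call held in all 23 alternatives. The Golgi and lysosome membrane protein gene Tmbim1 rose by 1.03 on the log2 scale (edgeR adjusted p = 0.00449).

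Klotho, the FGF23 coreceptor that is abundant in this segment and is encoded by Kl, fell to 152 ± 79.5 CPM in cKO, against 573 ± 173 CPM in WT (SD, n = 4 each; edgeR adjusted p = 0.00954). The parathyroid hormone receptor gene Pth1r fell by 1.12 on the log2 scale (edgeR adjusted p = 0.0339), a call lost in 11 of 23 alternatives. The vitamin D receptor gene Vdr had 110 ± 41.8 CPM in cKO and 210 ± 67.9 CPM in WT, with no overlap, and did not pass (edgeR adjusted p = 0.0847), and neither did the calcium-sensing receptor gene Casr (-0.96, 0.113) or the plasma membrane calcium pump genes Atp2b1 (-0.32, 0.363) and Atp2b4 (-0.16, 0.82).

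**Figure D4:**
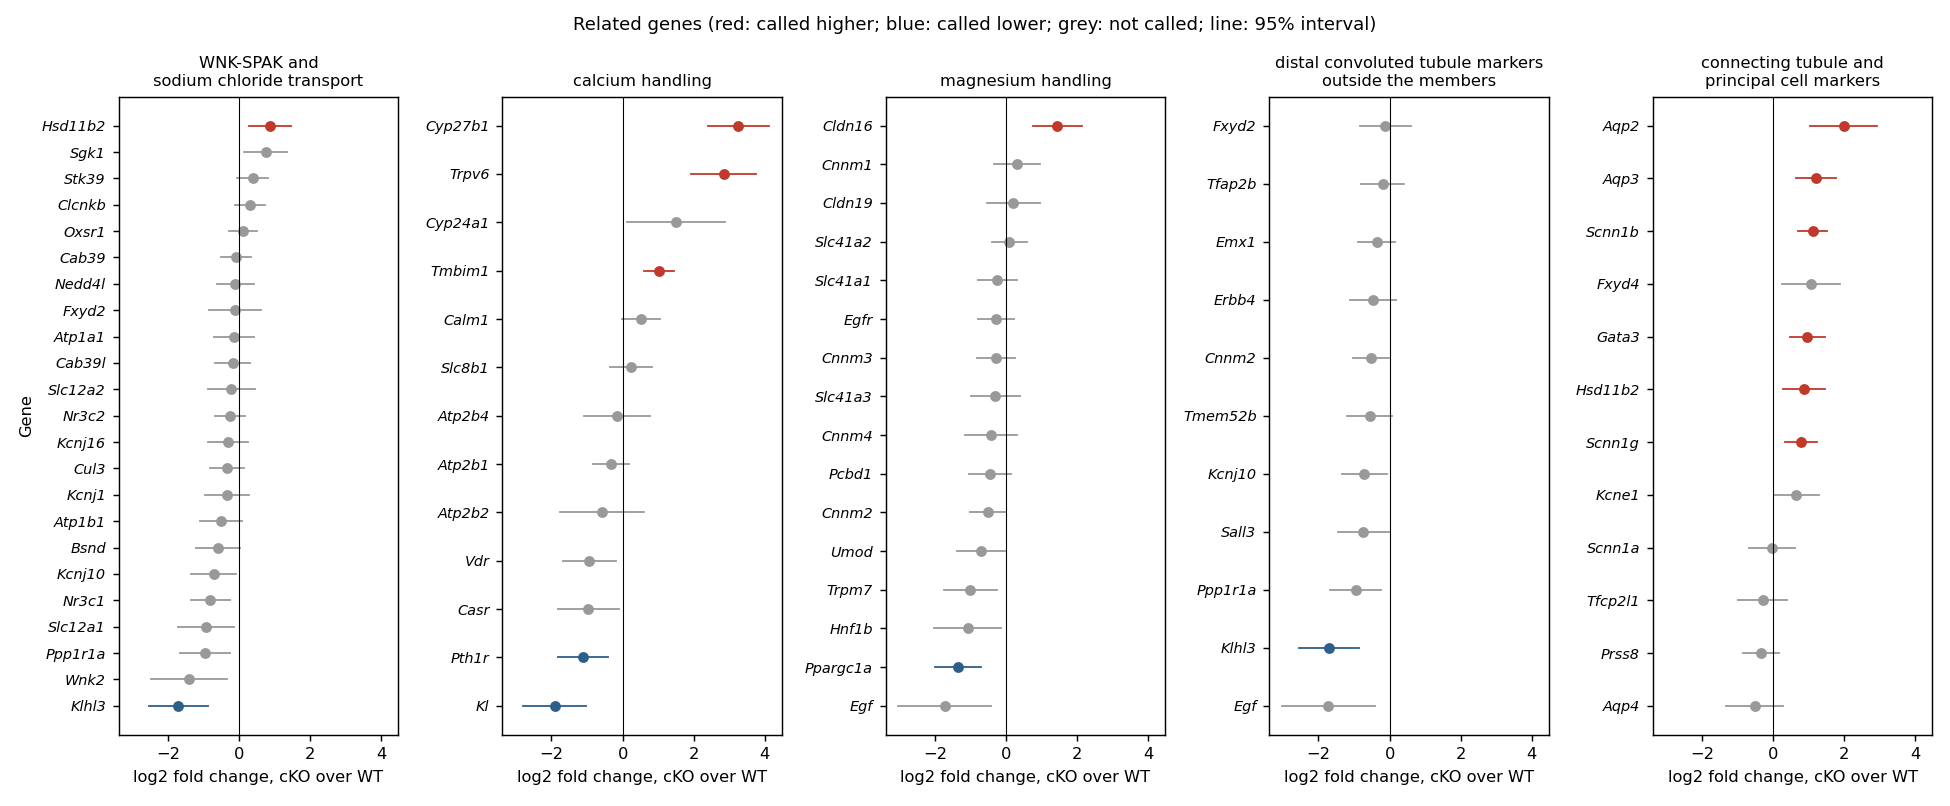
Log2 fold change of cKO over WT (horizontal axes) with its 95% interval for the tested genes of 5 related lists, red where called higher, blue where called lower and grey where not called at an edgeR adjusted p under 0.05. Of 12 connecting tubule and principal cell markers 6 were called higher, while 1 of 11 distal convoluted tubule markers was called lower.

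Markers of other cells of the kidney differed in how many passed the test, where 16.7% of all genes did. Of 8 tested thick ascending limb markers 1 rose (Cldn16) and 1 fell (the prostaglandin receptor gene Ptger3). Their summed levels were 1739 to 2868 CPM in cKO and 3227 to 5665 CPM in WT. Most of this sum in each kidney was Umod, which did not pass (1578 ± 365 CPM in cKO, 2578 ± 818 CPM in WT, edgeR adjusted p = 0.137). The 8 tubular injury markers all rose, led by Havcr1, Lcn2, Spp1 and Vcam1, with sums of 11201 to 25432 CPM in cKO and 582 to 2106 CPM in WT. Spp1 made up most of the injury sum in each kidney. Proximal tubule markers fell in 6 of 11 cases, among them Slc5a2, Slc34a3, Lrp2 and Kap. Intercalated cell markers fell in 1 of 8 cases (Slc4a1), podocyte markers, of which Podxl was the most abundant, in 0 of 6 and endothelial markers in 2 of 7 (Kdr and Ehd3). Leukocyte markers rose in 4 of 7 cases (Itgam, Cd68, Lyz2 and Adgre1) and fibroblast and smooth muscle markers in 7 of 9, led by Col3a1, Col1a1, Col1a2 and Acta2, with 1 falling. The part of these shifts in the values of the 10 genes was not tested.

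The genes whose profile over the 8 libraries was most like that of a gene that fell were found by the root mean square difference of centred log2 CPM, among 12657 genes. For Wnk1 they were Limch1 (0.11) and Ppm1l (0.117), for Slc12a3 Ptpdc1 (0.169) and mt-Co1 (0.176), and for Trpm6 Id4 (0.198) and mt-Co1 (0.203). For Pvalb the nearest were farther off, Rhox6 (0.846) and Slc22a26 (0.912).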

How the data were processed

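Per the labels, kidneys were frozen, RNA was isolated on columns and stranded libraries of polyadenylated RNA were made. The submitters' processing notes name STAR, RSEM and mm10 without versions, and neither the annotation nor the strand setting is stated there. Each deposited file holds expected counts per Ensembl gene for 1 library, not scaled by the authors as far as the values show. GENCODE M21 gave symbols and positions to 47224 of 47643 identifiers.

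Expected counts were rounded, filtered with filterByExpr (13829 genes left) and scaled by TMM. Genotypes were compared with edgeR's quasi-likelihood test, robust and two-sided, and p-values were adjusted after Benjamini and Hochberg across the whole table (threshold 0.05). Ratios were tested by exact permutation over 70 assignments. Libraries with at least 10 Y-linked counts were taken as male. No library was a copy of another: even the closest pair within a genotype gave a chi-square per gene of 17.1, far over the 1 of pure sampling noise.

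All 10 genes, Cox10, and of each list up to 4 called genes with the smallest adjusted p (or the 2 most abundant) are named, with the 2 genes of nearest profile among those with a mean of at least 1 CPM. Others (Ppp1r1a, Stk39, Oxsr1, Kcnj10, Kcnj16, Egf, Trpm7, Cnnm2, Fxyd2, Vdr, Casr, Pth1r, Atp2b1, Atp2b4, Tmem52b, Emx1, Sall3, Umod, Fxyd4, Kcne1, Aqp4, Prss8, Tfcp2l1, Scnn1a, Ptprc, Cd79b and Csf1r) were chosen after their values were seen. 1 gene that this rule names is not reported here. The 10 genes and the lists were chosen with earlier results of these data known. The fit was tested on simulated data. Software comprised edgeR 4.0.16, DESeq2 1.42.0 and limma 3.58.1 under R 4.3.3, then matplotlib 3.10.9, numpy 2.4.6 and pandas 2.3.3 under Python 3.11.15. Alternatives were other scalings and filters, DESeq2, limma-voom, sex, age and replicate terms, and leaving out libraries.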

Additional observations from a re-analysis of the deposited data

Results flagged for a closer look

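Calb1 in WT 1 had 859 CPM, against 331 to 390.2 CPM in the other WT kidneys, a gap larger than a test for a single outlying sample allows in a group of 4. S100g in cKO 2 had 1959 CPM, against 417 to 653 CPM in the other cKO kidneys, and met the same test. Of 20 groups examined in this way 2 were found, where chance gives about 5%. Klk1 had a log2 fold change of 0.48 within libraries with Y-linked reads and -0.82 within those without. The kidney cKO 3 lay above WT 2, WT 3 and WT 4, which share its Y-linked reads, and cKO 1, cKO 2 and cKO 4 lay below WT 1. The edgeR test of the difference gave an unadjusted p of 0.0951 and an adjusted p of 1.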

How the results depend on the processing

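Under the other scalings, filters and tools, 3 to 6 of the 10 genes were called, against 4 in the reported fit, where 10.9% (no count filter) to 22.9% (DESeq2, with 6 of the 10) of all genes were, and Pvalb was called in all 23 alternatives. An age term called 7 of the 10 and 21.5% of all genes, against 16.7%. A sex term gave 941 calls over all genes, leaving out the 2.5-month pair gave 1397, and leaving out WT 4 and cKO 4 together gave 568, with 1 of the 10 genes (Pvalb). Within libraries without Y-linked reads 1 of the 10 and 120 of all genes were called, and within those with them 1 and 480. Leaving out 1 library at a time gave 1 to 6 of the 10 and 1155 to 3093 of all genes, with 1 of the 10 without WT 4 or cKO 3 and 2 without WT 3 or cKO 4. Scaling by total counts moved the median log2 fold change of all genes to 0.15, against -0.01, and split the calls into 1866 higher and 550 lower, against 1323 and 987. With 1 library left out, the most calls came without WT 1. The cause of these moves was not tested.

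Klk1 changed sign with scaling by total counts (0.10), without the 2.5-month pair (0.011) and within libraries with Y-linked reads (0.48), and ranged from -0.31 to 0.19 with 1 library left out. S100g changed sign with a sex term (-0.048), without the 2.5-month pair (-0.15) and within libraries without (-0.081) and with (-0.014) Y-linked reads, and ranged from -0.28 to 0.86 with 1 library left out. Neither was called in any of these. The difference of the Slc8a1 log2 ratio was -0.12 against other markers and ranged from -0.14 to 0.13 with 1 library left out, and that of Wnk4 from -0.0028 to 0.28. The limma fit of ratios with a replicate block called 4 of 9, beside 62.3% of all genes.

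Whether the replicate numbers pair the samples could not be decided from so few libraries. Residuals of same-numbered WT and cKO libraries correlated at -0.08, 0.28, 0.12 and -0.0022, and not every library correlated best with its own number. The value of 0.28, for WT 2 and cKO 2, which share the younger age, was the highest of any WT and cKO pair. With the replicate block 6 of the 10 and 2208 of all genes were called. Depth limits Pvalb, at 10 to 26 counts in cKO kidneys, and Trpm6 most.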

Other observations

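Genes of the kinin system, on which kallikrein acts, were not alike in cKO kidneys. Kng1, which encodes a kininogen, the type of protein that kallikrein cleaves, rose to 9.58 ± 4.97 CPM in cKO, against 0.525 ± 0.214 CPM in WT (SD, n = 4 each; edgeR adjusted p = 0.000407). Kng2, its far more abundant relative, had 359 ± 42.9 CPM in cKO and 321 ± 99.8 CPM in WT. Its log2 fold change of 0.16 did not pass (edgeR adjusted p = 0.701). Ace, which encodes the enzyme that breaks kinins down and is abundant in the proximal tubule brush border, fell to 55.3 ± 30.4 CPM in cKO, against 286 ± 102 CPM in WT (edgeR adjusted p = 0.00383). Of the 18 genes of this list 8 were tested, and the kinin receptor genes Bdkrb1 and Bdkrb2 had too few counts to be tested. Kng2 was chosen after its values were seen.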
